A study of Zea mays with 2 samples.

Results

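The 22-kDa alpha zein genes of the z1C1 cluster were measured in maize (Zea mays) endosperm, the starch and protein store of the kernel, at 15 days after pollination. The members were taken by gene identifier from a list of 10, and all 10 were found among the 41406 gene models of each library. They are the copies z1C1_1, z1C1_2, z1C1_4, z1C1_5, z1C1_6, z1C1_7, z1C1_8, z1C1_11, z1C1_12 and z1C1_19. RNA of endosperm carrying the defective kernel mutation dek44 was compared with RNA of wild-type endosperm, and the study's question was which transcripts differ in the mutant. The series text describes triplicate profiling, but the labels list 1 library for each genotype and 1 column of values was used for each. The labels do not state the inbred background, the number of kernels pooled or the allele. With single libraries there is no replicate check and no test, so each value describes these libraries only.

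Zeins are the prolamins of maize, seed storage proteins made on the rough endoplasmic reticulum and packed into protein bodies of the starchy endosperm. Alpha zeins fill the core of a protein body, while gamma and beta zeins form its outer layer. The 22-kDa alpha zeins come mostly from tandem copies at the z1C1 cluster, and the gene floury2 (also called z1C2) is a 22-kDa copy away from it. The bZIP factor Opaque2 and the prolamin-box binding factor are known activators of 22-kDa zein genes. The Dek44 gene is known to encode a protein of the mitochondrial ribosome.

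The values are RPKM, that is, read numbers corrected for the length of a gene and the size of its library, so levels can be compared between genes and a fold is wild-type RPKM divided by dek44 RPKM. Each fold has a 95% counting interval, an exact conditional binomial (Clopper-Pearson) interval from read numbers recovered from the RPKM values, and it covers counting error only. That recovery put the dek44 library at 22612657 reads and the wild-type library at 20861135. The z1C1 copies are closely similar in sequence, and the sources used here do not say how the authors treated reads that match several copies. Single copies are for that reason less certain than the family sum.

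The z1C1 transcripts were about 11-fold less abundant in the dek44 library than in wild type. The 10 genes summed to 29704 RPKM in wild type against 2734 in dek44, a 10.9-fold lower sum in the mutant (95% counting interval 10.74 to 10.99). With the median ratio of all genes set to 0 it was 16.7-fold, and with a trimmed mean of ratios set to 0 17.9-fold. Of the RPKM of all genes they made up 2.15% in wild type against 0.207% in dek44. All 10 genes reached an RPKM of 1 in the wild-type library, and 9 also did in dek44. In bulk tissue, fewer cells expressing the genes and less RNA per cell cannot be told apart.

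With 1 added to each RPKM before the log2 ratio of dek44 to wild type was taken, which shrinks the difference of low genes, 10 of the 10 genes were at least 2-fold lower in dek44. Among the 30136 genes that reached an RPKM of 1 in either library, 3.7% were. At 4-fold the count was again 10 of 10, beside 0.863% of those genes, and at 8-fold it was 8 of 10, beside 0.282%. To set the members beside genes of like abundance, the same count was taken among the 1656 genes whose RPKM averaged 100 or more. Here 2.11% were at least 8-fold lower, against 7 of the 9 z1C1 genes at that level. The average covers both libraries, so a gene can pass through its wild-type level alone. That holds for z1C1_12, with 976 in wild type and 1.44 in dek44, and z1C1_1, with 278 and 23.5. Both are among the 7, so for them the filter and the fold are not independent. The median log2 ratio was -3.47 over the 10 genes and 0.62 over all 30136, so relative to the median gene the members were at -4.09. Later counts relative to the median gene use that scale, on which the share of all genes was not taken. The shares of all genes given here are for RPKM as deposited.

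**Figure D1:**
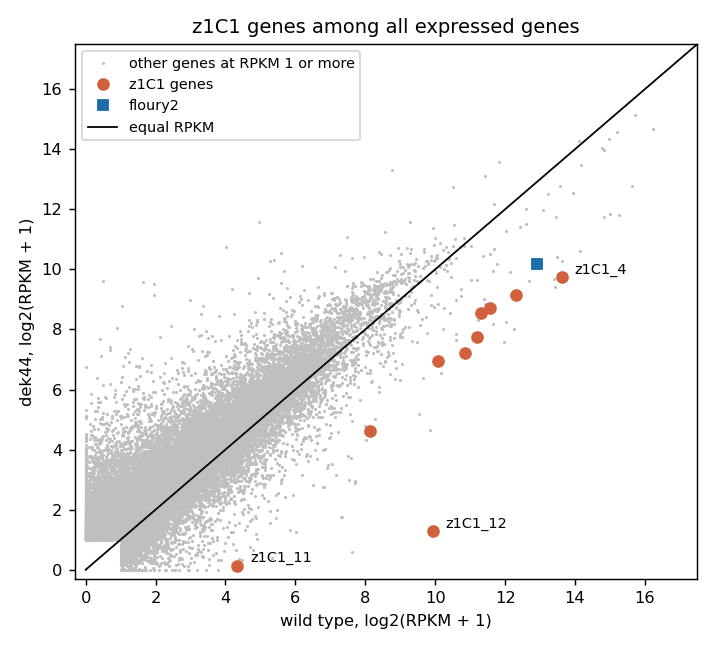
Each point is a gene, with its level in the wild-type library on the horizontal axis and in the dek44 library on the vertical axis, both as log2(RPKM + 1). Orange circles are the z1C1 genes and the blue square is floury2; all of them lie under the black line of equal RPKM, and of the z1C1 genes, z1C1_12 and z1C1_11 lie farthest below it.

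The most abundant copy in both libraries was z1C1_4 (GRMZM2G044625), a protein-coding 22-kDa zein gene in the RefSeq annotation. It reached 12595 RPKM in wild type against 854 in dek44, a 14.7-fold lower level (14.5 to 14.99). It stood at rank 15 of all genes in wild type and at rank 133 in dek44. The next copy, z1C1_19 (GRMZM2G160739), also protein coding, reached 5033 in wild type against 572 in dek44, 8.80-fold lower (8.57 to 9.03). Copies z1C1_7 and z1C1_8, the third and the fourth in abundance and likewise protein coding, differed least between the libraries. For z1C1_7 (GRMZM2G346897) the RPKM was 3019 in wild type against 420 in dek44, 7.19-fold lower (7.01 to 7.36). For z1C1_8 (GRMZM2G044152) it was 2522 and 377, 6.69-fold lower (6.46 to 6.94).

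The copies z1C1_5, z1C1_2, z1C1_6 and z1C1_1 are annotated as transcribed pseudogenes. RPKM of z1C1_5 (GRMZM2G045387) was 2322 in wild type against 215 in dek44, 10.8-fold lower (10.2 to 11.5). That of z1C1_2 (GRMZM2G388461) was 1856 and 149, 12.5-fold lower (11.8 to 13.2). These copies bracketed the family fold of 10.9. The level of z1C1_6 (GRMZM2G346895) was 1084 in wild type against 123 in dek44, 8.79-fold lower (8.40 to 9.21). That of z1C1_1 (GRMZM2G088441) was 278 and 23.5, 11.9-fold lower (10.7 to 13.2). The 8 genes described so far thus spanned folds from 6.69 to 14.7, a 2.20-fold range.

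The last pair, z1C1_12 and z1C1_11, was nearly absent from the dek44 library. The protein-coding copy z1C1_12 (GRMZM2G088365) stood at 976 RPKM in wild type, rank 101 of all genes, and at 1.44 in dek44, rank 27411. That is 678-fold lower (463 to 1038), and the dek44 value rests on as few as 26 reads. The transcribed pseudogene z1C1_11 (GRMZM2G088273) stood at 19.3 in wild type and at 0.0955 in dek44, where the value may be a single read. Its ratio was 202-fold with an interval from 35.7 to 8006. Even the lower bounds of this pair were above the upper bound of the z1C1_4 fold, 14.99. Without the pair, the summed RPKM of the other 8 genes was 10.5-fold lower in dek44 (10.4 to 10.6), so the family fold rests little on it. Whether the dek44 plants carry intact z1C1_12 and z1C1_11 copies was not tested, so an absent copy and a silent one cannot be told apart here.

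**Figure D2:**
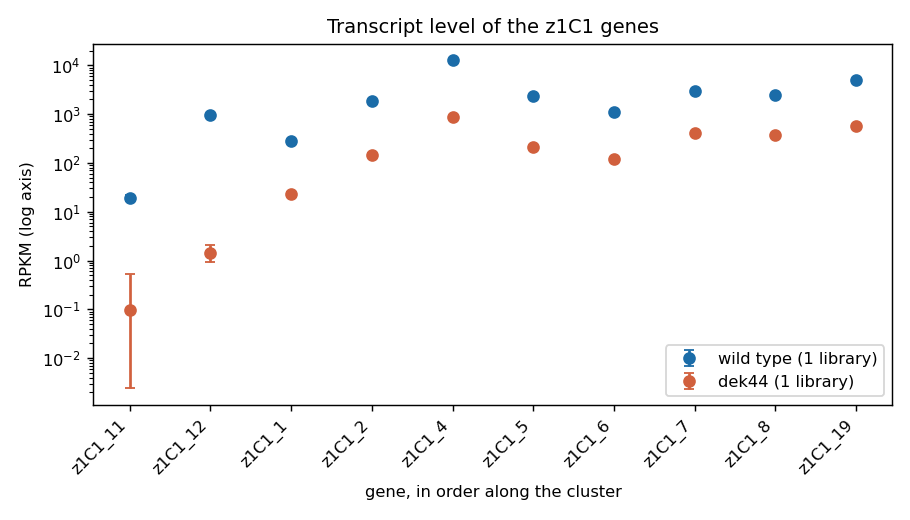
RPKM of each z1C1 gene on a logarithmic axis in the wild-type library (blue) and the dek44 library (orange), with genes in their order along the cluster; bars are 95% Poisson counting intervals, mostly smaller than the points. Every gene is lower in dek44, and the gap is widest for z1C1_11 and z1C1_12 at the left end.

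The genes with the greatest loss lie side by side. In the gene order of the RefSeq table (assembly Zm-B73-REFERENCE-NAM-5.0, not the build of the files, so coordinates are left out), the members run z1C1_11, z1C1_12, z1C1_1, z1C1_2, z1C1_4, z1C1_5, z1C1_6, z1C1_7, z1C1_8 and z1C1_19. The pair with the near-complete loss is the first 2 of that order. The table places 1 more measured copy, z1C1_13 (GRMZM2G535393), directly after z1C1_12; it is a transcribed pseudogene and is not on the list of members. It stood at 8.14 RPKM in wild type with 0 reads in dek44. Against a floor of 3 reads in dek44 it was at least 6.50-fold lower, and the lower end of its counting interval was 4.77. Thus 3 neighbouring copies at 1 end were at or close to 0 in dek44, while z1C1_1, the next in order, stood at 23.5. At this low level z1C1_13 alone could not be told from the 8 other copies. Of the 14 genes that the table names z1C1, z1C1_3, z1C1_10 and z1C1_20 could not be matched to an identifier of the files and were not analysed here.

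Along the rest of the cluster the fold was 11.9 at z1C1_1, 12.5 at z1C1_2 and 14.7 at z1C1_4. It was 10.8 at z1C1_5, 8.79 at z1C1_6, 7.19 at z1C1_7, 6.69 at z1C1_8 and 8.80 at z1C1_19. With RPKM as deposited, each copy from z1C1_1 to z1C1_5 thus had a larger fold than each copy from z1C1_6 to z1C1_19, an order that scaling of the libraries leaves as it is; the split was seen in these values. When the genes were ordered by fold, 4 of the 9 neighbouring pairs had overlapping intervals: z1C1_12 with z1C1_11, z1C1_2 with z1C1_1, z1C1_1 with z1C1_5, and z1C1_19 with z1C1_6. The spread among the other 5 pairs was larger than counting error, but no replicate shows how much single copies vary between kernels of 1 genotype.

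**Figure D3:**
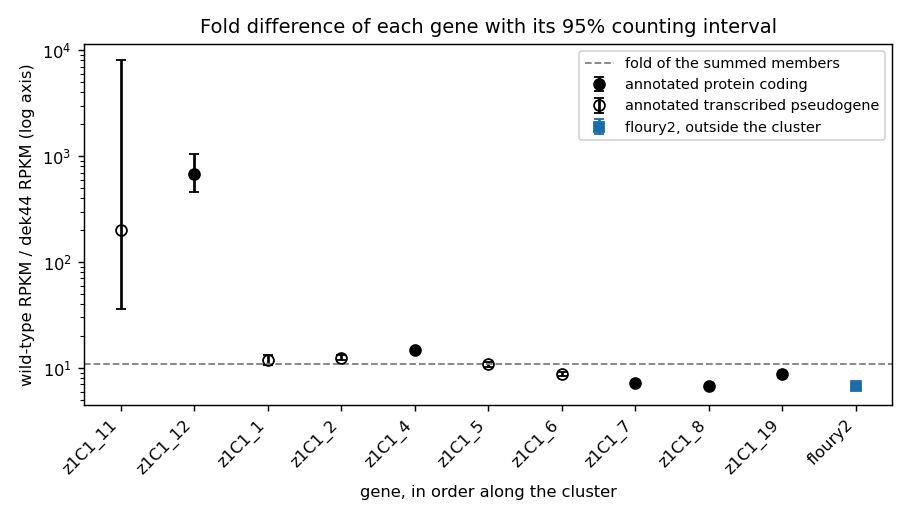
Fold difference (wild-type RPKM over dek44 RPKM, logarithmic axis) of each z1C1 gene in order along the cluster, and of floury2 at the right; bars are 95% counting intervals, filled circles are annotated protein coding and open circles transcribed pseudogenes. The first 2 genes stand at 202 and 678, and the other 8 lie between 6.69 and 14.7 around the dashed line of the family fold, 10.9.

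Matched non-zein genes on either side of the cluster were not 2-fold lower. Taken were the 5 nearest measured non-zein identifiers on each side with a RefSeq match, in the same gene order. Gene models without a match, which may lie nearer, were passed over. Of the identifiers taken, 9 reached an RPKM of 1 in either library. Among the 9, 0 were at least 2-fold lower in dek44, 3 were at least 2-fold higher and 6 were within 2-fold, with log2 ratios from -0.08 to 2.92. Beyond z1C1_19, GRMZM5G837872 and GRMZM5G853191 belong to 1 RefSeq gene. The former counts as within 2-fold (0.47) and the latter as higher (1.11). Over all 30136 genes 3.7% passed 2-fold downward and 31.6% upward with RPKM as deposited. Relative to the median gene 0 of the 9 were lower and 1 was higher, with no share of all genes taken on that scale. The nearest on the side of z1C1_11, GRMZM2G076435, stood at 0.117 RPKM in wild type and 0.541 in dek44. The nearest beyond z1C1_19, GRMZM2G122869, had 18.6 and 19.4.

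The order of the copies by level was nearly the same in both libraries. The first 7 ranks were z1C1_4, z1C1_19, z1C1_7, z1C1_8, z1C1_5, z1C1_2 and z1C1_6 in wild type and in dek44, and z1C1_11 was last in both. The single exchange was between z1C1_12, the eighth in wild type and the ninth in dek44, and z1C1_1. Spearman's rho across the 10 genes was 0.988, a description over copies that share libraries and possibly reads. Within each library, the 95% Poisson intervals of neighbours in this order overlapped in 0 of 9 pairs. Without z1C1_11 and z1C1_12, the level differed 45.3-fold between the highest and the lowest copy in wild type and 36.4-fold in dek44.

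The make-up of the family shifted away from its leading copy. Shares of the family sum do not depend on how the libraries are scaled to each other. The share of z1C1_4 was 42.4% in wild type and 31.2% in dek44, a difference of -11.2 percentage points. That of z1C1_12 was 3.28% and 0.0526%. The copies whose share was larger in dek44 by the most percentage points were z1C1_19, at 16.9% and 20.9%, z1C1_7, at 10.2% and 15.4%, and z1C1_8, at 8.49% and 13.8%. The share of z1C1_6 was also larger in dek44, at 3.65% in wild type and 4.51% in dek44. The share of z1C1_5 was 7.82% and 7.85%, that of z1C1_2 6.25% and 5.44%, and that of z1C1_1 0.937% and 0.858%. The 3 most abundant copies together held 69.5% in wild type and 67.5% in dek44.

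**Figure D4:**
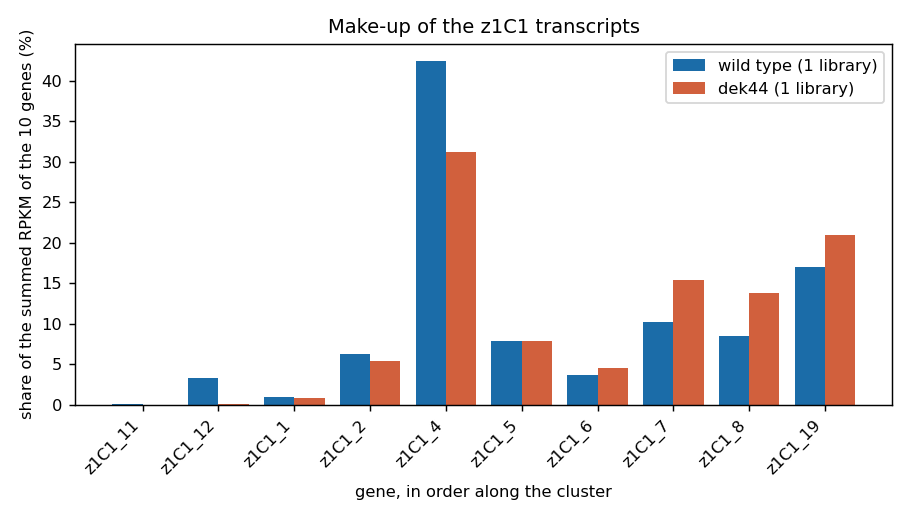
Share of each z1C1 gene in the summed RPKM of the 10 genes, in percent, for the wild-type library (blue) and the dek44 library (orange), with genes in order along the cluster. The bar of z1C1_4 is lower in dek44 (31.2% against 42.4%), and those of z1C1_7, z1C1_8 and z1C1_19 are higher.

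Summed, the copies annotated as protein coding and those annotated as pseudogenes were lower by the same fold. The 5 members annotated as protein coding summed to 24145 in wild type against 2224 in dek44, 10.9-fold lower (10.73 to 10.98). The 5 transcribed pseudogenes summed to 5559 and 510, also 10.9-fold lower (10.6 to 11.2). Protein-coding copies accordingly held 81.3% of the family sum in both libraries. Within each kind the copies differed, from 6.69-fold to 678-fold among the coding copies and from 8.79-fold to 202-fold among the pseudogenes. The biotype is that of the RefSeq annotation of the B73 inbred, and the alleles of the sampled plants were not examined.

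The 22-kDa copy outside the cluster, floury2 (GRMZM2G397687), reached 7689 RPKM in wild type against 1148 in dek44, 6.70-fold lower (6.60 to 6.80). Its interval overlapped that of z1C1_8 and lay below those of the 9 other members. In wild type z1C1_4 was 1.64 times as abundant as floury2, and in dek44 0.744 times. As a share of floury2 and the 10 members together, floury2 held 20.6% in wild type and 29.6% in dek44. There it was the most abundant of the 22-kDa genes named here.

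Genes of the other zein classes were lower too. The 19-kDa alpha zeins, the larger alpha class, summed over 12 identifiers to 78601 in wild type against 6917 in dek44, 11.4-fold lower (11.3 to 11.5), an interval just above that of z1C1. Individually 11 were at least 2-fold lower, beside 3.7% of all genes, and 0 higher, beside 31.6%. Their median log2 ratio was -3.29. Their most abundant identifier, shared by z1A1_3 and z1A1_4 (GRMZM2G059620), had 18154 and 1574, and the one with the lowest log2 ratio, z1A1_7 (GRMZM2G353268), had 10896 and 688. The 3 gamma zeins summed to 121550 and 29945, 4.06-fold lower (4.03 to 4.09), which follows gz27 (GRMZM2G138727), the most abundant of the named zeins, at 77278 and 26132, 2.96-fold lower. The other gamma zeins were gz16 (GRMZM2G060429), 11.1-fold lower, and gz50 (GRMZM2G138689), at 4887 and 258 or 18.9-fold lower, and the gamma median log2 ratio was -3.47, like that of z1C1. The beta zein bz15 (GRMZM2G086294) had 51113 and 6935, 7.37-fold lower, and the delta zein dzs18 (GRMZM2G100018) had 12232 and 917, 13.3-fold lower. The z1C1 genes held 9.87% of the RPKM of 29 named zeins in wild type against 5.63% in dek44, while the gamma zeins held 40.4% and 61.6%. Zein genes that the table does not name are missing from these sums.

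Among regulators of zein genes, more passed 2-fold downward than upward. On the log2 scale with 1 added, 3 of 10 identifiers matched to names of the list passed 2-fold downward, beside 3.7% of all genes, and 1 passed it upward, beside 31.6%. Their median was -0.06. Relative to the median gene 4 were lower and 0 higher, with no share of all genes taken on that scale. The Opaque2 gene o2 (GRMZM2G015534) had 456 in wild type against 80.7 in dek44, 5.66-fold lower (5.42 to 5.91), an interval below that of every z1C1 gene. Its partner bZIP genes ohp1 (GRMZM2G016150) and ohp2 (GRMZM2G007063) had 23.5 and 18.6, and 11.2 and 22.4. The name pbf1, the prolamin-box binding factor, belongs to a pair of identifiers, GRMZM2G146283 with 64.3 and 32.0, a plain fold of 2.01 but a log2 ratio of -0.98 with 1 added, and GRMZM2G146267 with 17.4 and 21.1. The others at least 2-fold lower on that log2 scale were nkd1 (GRMZM2G129261), an aleurone fate factor, with 171 and 81.3, and fl3 (GRMZM2G006585), a PLATZ protein, with 5545 and 2696. The one higher was vp1 (GRMZM2G133398), a seed maturation factor, with 1.80 and 7.36. Nkd2 (GRMZM5G884137) had 14.5 and 16.8, and mads47 (GRMZM2G099577), a MADS factor known to act with Opaque2, 2.86 and 4.25.

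Among genes of zein bodies and of folding in the endoplasmic reticulum, floury1 and opaque10 were lower in dek44. On the log2 scale with 1 added, 2 of 5 were at least 2-fold lower, beside 3.7% of all genes. At least 2-fold higher were 2 of 5, but so were 31.6% of all genes. Relative to the median gene 2 were lower and 1 was higher, again without a share of all genes on that scale. The floury1 gene (GRMZM2G094532), whose membrane protein places 22-kDa zeins within the protein body, had 94.5 in wild type against 20.7 in dek44, 4.57-fold lower (3.93 to 5.33). The opaque10 gene (GRMZM2G346263), which also acts in the layering of zeins, had 70.8 and 15.1, 4.67-fold lower (4.11 to 5.33). The chaperone genes were not lower in RPKM: crt2 (calreticulin, GRMZM2G358059) had 72.7 and 447, bip2 (GRMZM2G415007) 29.0 and 90.0, and bip1 (GRMZM2G114793) 138 and 205. Relative to the median gene, the log2 ratios of crt2, bip2 and bip1 were 1.98, 0.98 and -0.06.

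Marker genes of the tissue were checked beside these values. All 5 starchy endosperm markers were present in both libraries, with RPKM of at least 456 in wild type and 80.7 in dek44. In dek44 5 of 5 were at least 2-fold lower, beside 3.7% of all 30136 expressed genes. Of the 5 markers, gz27 and o2 are the zein and the zein activator already given. The others, wx1, bt2 and sh2, genes of starch synthesis, had 3191, 3998 and 2714 in wild type and 288, 192 and 513 in dek44. The 3 basal transfer layer markers summed to 254 in wild type and 2261 in dek44, with 3 of 3 at least 2-fold higher. For the embryo-surrounding markers it was 2 of 2, summing to 8.27 and 118. Of all expressed genes 31.6% passed 2-fold upward with RPKM as deposited. Relative to the median gene the counts were again 3 of 3 and 2 of 2, with no share of all genes taken on that scale. The 3 embryo markers summed to 403 and 472, with 3 of 3 within 2-fold. Relative to the median gene, however, 1 of the 3, ole17, was at least 2-fold lower. The embryo counts leave out GRMZM2G067402, which shares the name glb1 but carries haemoglobin names in the table, with 0.0832 and 28.1. The part of these tissue differences in the z1C1 result was not tested.

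Among the 1245 genes outside the list that reached a wild-type RPKM of 100, the 5 whose log2 ratio was nearest to the -3.44 of the summed members lay within 0.05 of it; the likeness is over 2 libraries only. They were the unnamed GRMZM2G081464, with 120 in wild type and 10.3 in dek44, z1A1_2 (GRMZM2G404459), with 2286 and 206, wx1 (GRMZM2G024993), with 3191 and 288, gz16 (GRMZM2G060429), with 39385 and 3555, and the unnamed GRMZM2G518638, with 118 and 9.58. Of the 3 with a name, 2 were zeins and 1 was the granule-bound starch synthase gene.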

How the data were processed

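The deposited values are RPKM per gene model, per the file headers, 1 column for each of 2 samples. Per the submitters' processing notes, Bowtie 0.12.2 and the build B73 RefGen_v3 were used by the authors. How reads were counted, strand, gene lengths and reads that match several places are not stated. RPKM is relative to the library, so fewer reads from abundant zeins raise the values of other genes.

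Library totals were recovered from the 2000 lowest values, where the inverse of RPKM is mostly a whole multiple of the total. Each gene's reads are the smallest whole numbers (within 1e-05 reads plus a relative 1e-08) for a length from 100 to 5000 bases. They were found for 10 of 10 members; true reads may be a multiple, so intervals may be too wide. Intervals of sums use effective reads. Of simulated totals for 41406 genes, 4 of 4 were recovered, and 92% and 94% of 200 genes lowered 4-fold passed 2-fold. A gene counted as expressed at an RPKM of at least 1; ratios use a pseudocount of 1. Intervals and the floor of 3 reads cover counting error only.

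Names, gene order and biotypes came from the RefSeq table of Zm-B73-REFERENCE-NAM-5.0, which matched 16689 of 41406 identifiers. Named besides the 10 members were floury2, the most abundant and lowest-ratio gene of each zein class, listed regulators and zein body genes, cluster neighbours and the 5 most alike genes. Of these, o11, nac128, nac130, bzip22, o1, pdi1, vp10 and the aleurone marker al9 were not matched, and homonyms of fl1 and glb1 were left out. Neighbours were the 5 nearest measured non-zein identifiers with a RefSeq match on each side, a number chosen after the data were seen. Members and lists were chosen with earlier results of these data known. No promoter or protein sequence was used here. Python 3.11.15, numpy 2.4.6, pandas 2.3.3 and scipy 1.17.1 were used. Scalings, pseudocounts, filters and denominators were varied as alternatives.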

Additional observations from a re-analysis of the deposited data

How the results depend on the processing

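The 10 of 10 genes at least 2-fold lower stayed 10 of 10 under each of 3 scalings, pseudocounts of 0.1 and 5, no filter, and a size of 4-fold. The share of all genes past 2-fold was not retaken under the scalings, the other pseudocounts or without the filter. The share given above thus holds for the reported setting only. The scalings multiply every dek44 RPKM by 1 factor, so they move sizes and leave shares and ranks as they are. Because 1 is added to each RPKM, the log2 ratios of genes low in dek44 shift less. With the median ratio of all genes set to 0, z1C1_4 moved from -3.88 to -4.50 and z1C1_11 from -4.21 to -4.25. The family fold, 10.9 as reported, was 16.7 with the median ratio of all genes set to 0, 12.7 when scaled to the summed RPKM outside the named zeins, 17.9 with a trimmed mean of ratios set to 0, 9.10 without z1C1_4 and 9.63 with floury2 added. The median log2 ratio of the members, -3.47 as reported, was -4.08, -3.70 and -4.17 under those 3 scalings and -3.22 with a pseudocount of 5. With floury2 in the denominator the share of z1C1_4 was 33.7% in wild type and 21.997% in dek44. None of the 10 single genes changed sign under any of the 5 scalings and pseudocounts. The log2 ratio of z1C1_11, -4.21 as reported, was -6.63 with a pseudocount of 0.1 and -2.25 with one of 5, as its dek44 value may be 1 read. Shares and ranks by reads not per length were not run, since recovered reads are known only up to a multiple that differs between genes. No paired analysis was possible because only 1 library stands for either genotype, and leaving out a replicate could not be run for the same reason. Depth limits z1C1_11 and z1C1_13, with as few as 1 and 0 reads in dek44.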

Other observations

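The 19-kDa z1A1 genes also included a weakly expressed pseudogene. The transcribed pseudogene z1A1_8 (GRMZM2G018193) stood at 10.6 RPKM in wild type and at 0.280 in dek44, a ratio of 37.9-fold with a counting interval from 6.38 to 1541 and a smallest recovered number of 1 read in dek44. The interval holds the folds of 2 abundant z1A1 copies, z1A1_6 (GRMZM2G353272) with 13.2 and z1A1_7 (GRMZM2G353268) with 15.8. Among the z1B genes of the same class, z1B_9 (GRMZM2G125130) had 84.3 and 20.4, 4.13-fold lower (3.40 to 5.04), an interval below that of z1A1_8. z1B_7 (GRMZM2G309832) had 7.75 and 1.88, 4.12-fold lower (2.01 to 9.27), and z1B_8 (GRMZM2G025763) had 0.603 and 1.39 with as few as 2 and 5 reads.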
